A study of Rattus norvegicus with 8 samples.

Results

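The chondrogenic and osteogenic genes described here are 10 genes of the cartilage and bone programme that is studied in vascular calcification, namely Sox9, Runx2, Sp7, Msx2, Matn3, Chad, Ibsp, Bglap, Alpl and Mgp. They were chosen by symbol, with earlier results of these data known, and all 10 were found among the 37209 genes of the count table. mRNA was sequenced from 8 common carotid arteries of male Sprague-Dawley rats that weighed 400 g on average. In 4 of them the intima of the left carotid artery had been injured with a balloon dilatation catheter, and the vessel was taken 2 weeks later. The other 4 were undamaged right carotid arteries, which served as self-controls, so each control came from an animal whose other carotid artery had been injured. The comparison asks which transcripts of the injured wall differ from those of the undamaged wall. The libraries were made from whole vessels, so fewer cells of a type and less RNA per cell cannot be told apart.

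In the growth plate, SOX9 directs cells towards cartilage, while RUNX2 and, after it, the transcription factor SP7 direct them towards bone. Mineral is laid down when phosphate is freed and when pyrophosphate, an inhibitor of crystal growth, is broken down by the tissue-nonspecific alkaline phosphatase that Alpl encodes. Vascular smooth muscle cells can take up parts of this programme in calcifying arteries, and the Gla protein encoded by Mgp, which needs vitamin K, keeps the healthy wall free of mineral.

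Control libraries held 13470754 to 15276952 counts and injured libraries 11459632 to 16658089 counts. A floor of 3 counts corresponded to 0.18 to 0.262 CPM (the count scaled to the size of its library), which covers counting error only. Smooth muscle markers were abundant in every artery, led by Acta2 and Myh11, although the extraction text attached to the libraries names prefrontal cortex. Control artery 4 stood apart. Its log2 CPM correlated across genes with the other controls at 0.83 to 0.852, against 0.976 to 0.978 among the other controls. It carried 8530 CPM of 6 summed sympathetic neuron markers, against 2.46 to 4.64 CPM in the other controls, and injured arteries 3 and 1 carried 1248 and 101.4 CPM. The fold changes of the tested members are therefore also given without control artery 4, and other values where leaving it out changed a call or a fold change by more than 1.5 times. Nothing in the labels states that arteries with the same number came from the same rat. The tests therefore treated the arteries as 8 separate samples and did not use the pairing of self-controls. The p-values set the difference between the groups against the spread among arteries of a group. They take the 8 arteries as independent, which self-controls need not be, and do not measure a difference within a rat.

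The upstream sequence of a gene is where transcription factors such as RUNX2 and SOX9 can bind, and the windows of 4 members that the results turn on or are read against are shown here. A promoter entry of RefSeq (build GRCr8) existed for 7 of the 10 members, with 8 entries in all because Runx2 had 2. Each run below is the 250 bases before the start site, 5′ to 3′ on the strand of the gene. Capitals mark matches, on either strand, to letters that several families of factors can bind. The letters searched were ACCACA for the RUNX family and ACAAT for the SOX family. For homeodomain factors they were TAATTG, for the TEAD family they were GGAATG, and for the GC box they were GGGCGG. The core promoter element known as the TATA box was searched as TATAAA. The CArG box was also searched and had no match in any of them. The runs are Runx2 at chr9:23664808-23665057 (plus strand, the upstream start) and at chr9:23742990-23743239 (plus strand, the downstream start), Matn3 at chr6:37467479-37467728 (plus strand), Alpl at chr5:155289786-155290035 (minus strand) and Bglap at chr2:176137319-176137568 (minus strand).
Runx2 upstream start: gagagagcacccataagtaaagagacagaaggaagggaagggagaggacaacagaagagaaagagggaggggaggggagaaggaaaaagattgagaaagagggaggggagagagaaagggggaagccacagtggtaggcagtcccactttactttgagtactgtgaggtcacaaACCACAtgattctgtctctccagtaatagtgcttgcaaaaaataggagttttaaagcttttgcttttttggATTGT
Runx2 downstream start: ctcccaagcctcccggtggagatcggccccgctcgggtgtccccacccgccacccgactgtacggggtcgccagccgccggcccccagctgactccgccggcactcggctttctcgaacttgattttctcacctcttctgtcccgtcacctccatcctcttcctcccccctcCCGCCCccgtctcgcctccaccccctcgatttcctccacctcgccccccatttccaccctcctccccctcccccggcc
Matn3: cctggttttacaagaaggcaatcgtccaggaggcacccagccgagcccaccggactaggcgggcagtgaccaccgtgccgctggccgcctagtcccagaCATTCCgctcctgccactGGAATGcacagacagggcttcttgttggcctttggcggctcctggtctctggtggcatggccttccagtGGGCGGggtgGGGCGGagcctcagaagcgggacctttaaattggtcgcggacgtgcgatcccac
Alpl: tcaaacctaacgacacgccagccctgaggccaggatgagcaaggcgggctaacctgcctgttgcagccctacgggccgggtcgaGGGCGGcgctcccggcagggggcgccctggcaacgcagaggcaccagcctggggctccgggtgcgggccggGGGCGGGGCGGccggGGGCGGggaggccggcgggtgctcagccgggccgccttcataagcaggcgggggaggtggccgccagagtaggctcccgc
Bglap: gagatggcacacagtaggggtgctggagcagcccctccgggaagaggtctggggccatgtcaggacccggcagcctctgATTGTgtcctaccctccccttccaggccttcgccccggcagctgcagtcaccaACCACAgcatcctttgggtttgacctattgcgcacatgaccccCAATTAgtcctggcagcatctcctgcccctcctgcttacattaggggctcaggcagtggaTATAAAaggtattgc

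The window before the upstream start of Runx2 held ACCACA at 76 to 71 bases before the start, and the window of Bglap held it at 118 to 113 bases. Of 33469 rat promoter windows of the same length, 14.5% held it. The Bglap window also held TATAAA at 15 to 10 bases before the start, as did 12.9% of all windows. Alpl had 4 matches to GGGCGG, of which a neighbouring pair shared a base, and a GC content of 76%, and 30.5% of all windows held at least 1 such match. Matn3 had 2 matches to GGAATG, which 12.1% of windows held, and 2 to GGGCGG. The shares were 30.0% for ACAAT, 7.31% for TAATTG and 1.5% for the CArG box. A match is a run of letters and not a measured binding site. The counts are per gene and do not separate transcripts from the 2 starts of Runx2.

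Of the 10 members, 7 had enough counts for edgeR's quasi-likelihood test. By the rule given next, 3 of these were upregulated in the injured arteries (Sox9, Runx2 and Matn3), 1 was downregulated (Alpl), and 3 did not pass (Sp7, Ibsp and Mgp). Msx2, Chad and Bglap had too few counts. A gene was called at a false discovery rate (FDR, the Benjamini-Hochberg adjusted p over all genes tested) under 0.05 together with a fold change above 2. By that rule, 1562 of 14359 genes tested were called, 10.9% of them, with 8.31% upregulated and 2.57% downregulated. The groups did not overlap in CPM for the same 4 members, while 14.2% of the genes tested lay higher in all 4 injured arteries than in every control and 9.51% lay lower. Sox9 and Matn3 passed the filter on low counts through the injured arteries, where they were higher. Their counts in the controls were 1 to 20 and 1 to 9. Msx2, with 65 counts in all controls and 12 in all injured arteries, did not pass it. The tally of 3 higher and 1 lower members depends in part on this filter.

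**Figure D1:**
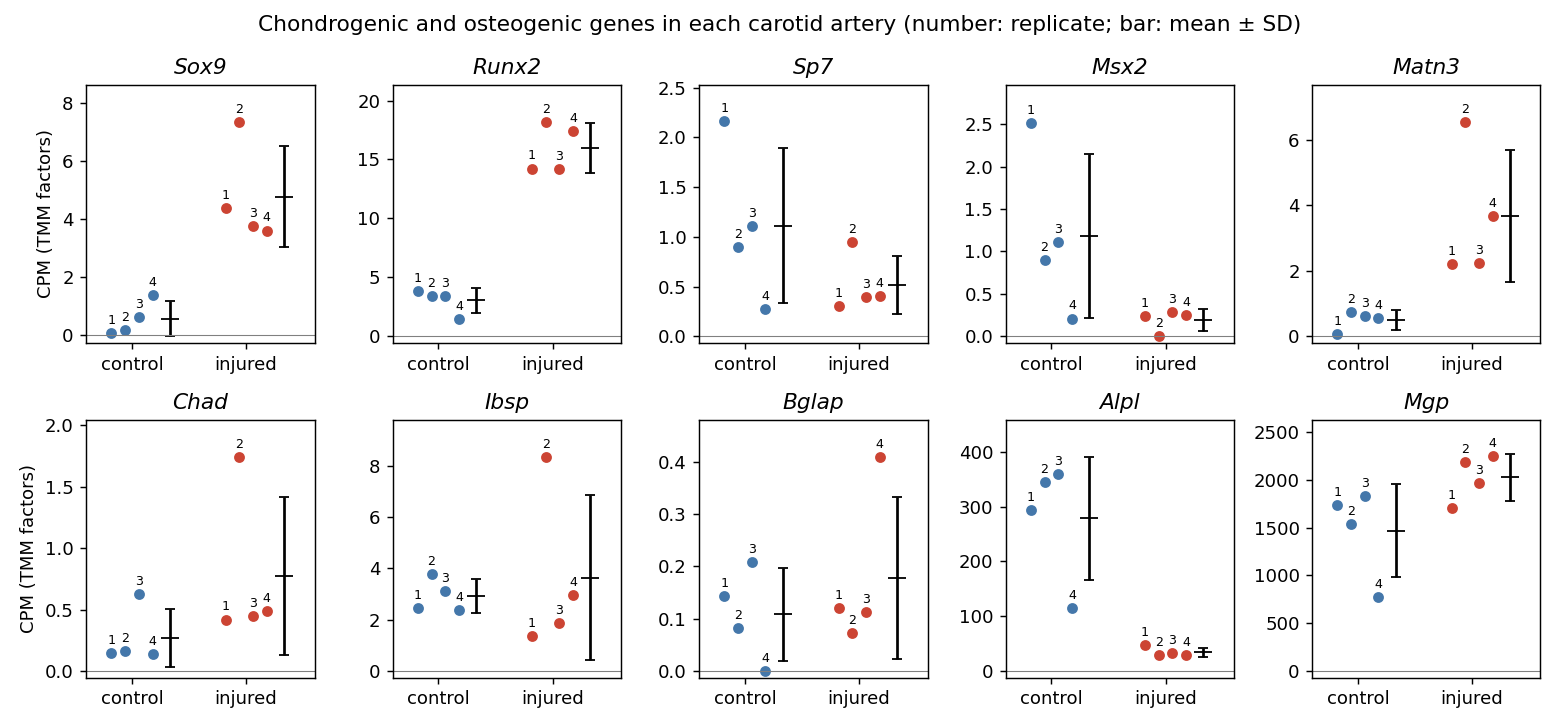
Level of each of the 10 genes in CPM (vertical axes, linear) in the 4 control (blue) and 4 injured (red) carotid arteries, with the replicate number above each point and the mean ± SD beside each group. Sox9, Runx2 and Matn3 lie higher in all injured arteries than in any control, Alpl lies lower, and the other 6 genes overlap between the groups.

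Runx2, the transcription factor that starts the bone lineage, had 3.82, 3.44, 3.40 and 1.46 CPM in control arteries 1 to 4 and 14.2, 18.2, 14.2 and 17.4 CPM in injured arteries 1 to 4. The injured arteries lay close together and all stood well above the controls. The group means were 3.03 ± 1.06 and 16.0 ± 2.12 CPM (SD, n = 4 each), and the log2 fold change was 2.40 (standard error 0.31, adjusted p = 0.00175 in edgeR's quasi-likelihood test). Without control artery 4, the lowest control, the log2 fold change was 2.16 (standard error 0.18, adjusted p = 0.000274 in edgeR's test). The exact two-sided permutation test of log2 CPM over all 70 relabellings gave p = 0.0286, the smallest p that these relabellings allow. Sox9, Matn3 and Alpl had the same p in this test. Without strand information, reads of Supt3h, a gene that overlaps Runx2, cannot be told apart from its own. Supt3h had 11.1 ± 7.59 CPM (SD, n = 4) in the controls and 10.3 ± 2.56 CPM (SD, n = 4) after injury, and was called in neither fit, at -0.10 on the log2 scale with all arteries and 0.50 without control artery 4.

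Sox9, the master regulator of cartilage, had few counts in the controls (1, 2, 9 and 20), with 0.0720, 0.164, 0.624 and 1.39 CPM in control arteries 1 to 4. In injured arteries 1 to 4 it had 4.37, 7.33, 3.76 and 3.60 CPM. The lowest injured artery was above the highest control, which was control artery 4. The log2 fold change was 3.05 (standard error 0.73, adjusted p = 0.0249 in edgeR's test), and without control artery 4 it was 3.98 (standard error 0.64, adjusted p = 0.00319 in the same test). The raw counts summed to 32 over the 4 controls and 285 over the 4 injured arteries. The call of Sox9 was not kept in every fit with an artery left out. It was lost without control artery 2 (log2 fold change 2.75, adjusted p = 0.0662 in edgeR's test) and without control artery 3 (3.09, adjusted p = 0.0703). It was also lost without injured artery 1 (3.09, adjusted p = 0.0546 in edgeR's test), without injured artery 2 (2.76, adjusted p = 0.0752) and without injured artery 4 (3.16, adjusted p = 0.0602). With all arteries and a block for the replicate number, Sox9 was not called either (log2 fold change 3.38, adjusted p = 0.0725 in edgeR's test). The direction was the same in all of these fits.

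Sp7, which acts after RUNX2 in bone-forming cells, was not called. It had 2.16, 0.902, 1.11 and 0.278 CPM in control arteries 1 to 4 and 0.299, 0.943, 0.393 and 0.409 CPM in injured arteries 1 to 4. The groups overlapped, and the highest value was that of control artery 1. The log2 fold change was -1.12 (standard error 0.63, adjusted p = 0.27 in edgeR's test) and -1.45 without control artery 4 (adjusted p = 0.0701 in the same test).

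Msx2, a homeobox factor that is active in bone-forming cells and reported in calcifying vessels, had 2.52, 0.902, 1.11 and 0.208 CPM in control arteries 1 to 4 and 0.239, 0, 0.281 and 0.245 CPM in injured arteries 1 to 4. That is 65 counts in all controls against 12 in all injured arteries, and control artery 4 lay among the injured arteries. Its counts were too low for the test with all 8 arteries. Without control artery 4 it could be tested and was called lower, at -2.91 on the log2 scale (standard error 0.71, adjusted p = 0.0176 in edgeR's test), where 3.94% of 14758 genes were called lower. DESeq2, which tested it with all 8 arteries, called it too, with -2.63 (adjusted p = 0.0292), where 3.3% of genes were called lower and 9.61% higher, among them Sox9, Runx2 and Matn3. With every gene kept in edgeR it was not called (-2.57, adjusted p = 0.132), and the exact two-sided permutation test gave p = 0.114.

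Matn3, a matrilin that links collagen fibrils and proteoglycans in cartilage, had 0.0720, 0.738, 0.624 and 0.556 CPM in control arteries 1 to 4. It reached 2.21, 6.53, 2.25 and 3.68 CPM in injured arteries 1 to 4, all above every control. The log2 fold change was 2.86 (standard error 0.62, adjusted p = 0.0163 in edgeR's test) and 2.92 without control artery 4 (adjusted p = 0.0168 in the same test). The raw counts were 1 to 9 in the controls and 37 to 90 in the injured arteries, and leaving out any single artery gave a log2 fold change from 2.43 to 3.10 with the call kept. The call was kept narrowly without injured artery 2 (adjusted p = 0.0489 in edgeR's test), injured artery 4 (0.0492) and control artery 3 (0.0458).

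Chad encodes chondroadherin, a leucine-rich protein of cartilage matrix that binds cells. It had 0.144, 0.164, 0.624 and 0.139 CPM in control arteries 1 to 4 and 0.419, 1.74, 0.449 and 0.491 CPM in injured arteries 1 to 4. Injured artery 2 was alone above the level of control artery 3. The counts, 15 in all controls and 45 in all injured arteries, were too few for the test, and the exact two-sided permutation test gave p = 0.114. Chad lies within Acsf2 in the GRCr8 annotation, and Acsf2 had 36.2 ± 7.61 CPM (SD, n = 4) in the controls and 40.8 ± 4.75 CPM (SD, n = 4) after injury, so reads of Acsf2 counted on Chad cannot be told apart without strand.

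Of the bone matrix genes among the members, Ibsp did not pass the test and Bglap had too few counts for it. Ibsp, bone sialoprotein, which binds hydroxyapatite, had 2.45, 3.77, 3.12 and 2.36 CPM in control arteries 1 to 4 and 1.38, 8.34, 1.85 and 2.95 CPM in injured arteries 1 to 4. Injured artery 2 was the highest and injured artery 1 the lowest of all 8. The log2 fold change was 0.31 (standard error 0.55, adjusted p = 0.742 in edgeR's test). Without control artery 4 it was 0.21, and without injured artery 2 its sign turned, to -0.51 (adjusted p = 0.417). Bglap, osteocalcin, the vitamin K-dependent protein of mature osteoblasts, had 0 to 3 counts in the controls and 1 to 5 counts in the injured arteries. Only control artery 3, with exactly 3 counts, and injured artery 4, with 5, reached the floor of 3 counts, so no change of Bglap was detectable at this depth.

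Alpl, described above as the enzyme that breaks down pyrophosphate, was downregulated. It had 293, 345, 360 and 114 CPM in control arteries 1 to 4 and 46.6, 28.4, 32.6 and 29.1 CPM in injured arteries 1 to 4. Control artery 4 was the lowest control, yet above every injured artery. The group means were 278 ± 113 and 34.2 ± 8.48 CPM (SD, n = 4 each), so that the control mean was 8.14-fold higher. The log2 fold change was -3.03 (standard error 0.37, adjusted p = 0.00155 in edgeR's test). Without control artery 4 it was -3.29 (standard error 0.19, adjusted p = 0.000115 in the same test).

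Mgp was abundant in both groups, with 1733, 1541, 1832 and 769 CPM in control arteries 1 to 4 and 1708, 2188, 1969 and 2246 CPM in injured arteries 1 to 4. Injured artery 1 lay below control arteries 1 and 3, so the groups overlapped. The group means were 1469 ± 482 and 2028 ± 245 CPM (SD, n = 4 each). The log2 fold change was 0.46 (standard error 0.27, adjusted p = 0.294 in edgeR's test), and without control artery 4, the lowest of all 8, it was 0.25 (standard error 0.13, adjusted p = 0.191).

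**Figure D2:**
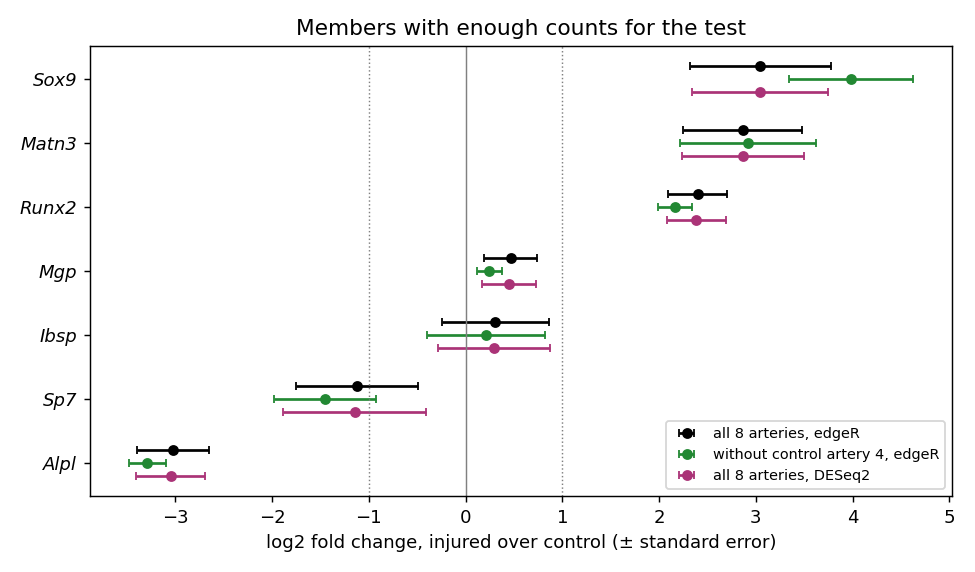
Log2 fold change of the injured over the control arteries (horizontal axis, ± standard error) for the 7 genes with enough counts for edgeR, with all 8 arteries (black), without control artery 4 (green) and with DESeq2 (purple), with dotted lines at a fold change of 2. Sox9, Matn3 and Runx2 lie to the right of 1, Alpl lies near -3 in each fit, and Mgp, Ibsp and Sp7 were not called.

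The wall also changed in cell type markers. The summed level of 7 smooth muscle markers was 37160 to 50365 CPM in control arteries 1 to 3, 17364 CPM in control artery 4 and 10515 to 16565 CPM in the injured arteries, and 4 of the 7 were called lower, or 6 of the 7 without control artery 4. The summed level of 6 macrophage markers was 86.5 to 121.9 CPM in the controls and 341 to 461 CPM in the injured arteries, with 5 of the 6 called higher and none at 0. Alpl was therefore also expressed per 1000 CPM of the smooth muscle markers of the same artery. It was 5.83, 8.02, 9.69 and 6.59 in control arteries 1 to 4 and 2.81, 2.01, 3.10 and 2.19 in injured arteries 1 to 4. On this scale control artery 4 lay among the other controls and the groups still did not overlap. The difference in mean log2 ratio was -1.57, with an exact two-sided permutation p of 0.0286, and it was -1.62 without control artery 4.

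Per 1000 CPM of the macrophage markers, Runx2 was 42.9, 28.3, 28.6 and 16.9 in control arteries 1 to 4 and 35.9, 39.5, 41.5 and 48.5 in injured arteries 1 to 4. Control artery 1 lay within the injured arteries, and the difference in mean log2 ratio was 0.57 (exact two-sided permutation p = 0.114), or 0.33 without control artery 4. Sox9 and Matn3 also overlapped on this scale, with differences in mean log2 ratio of 1.93 and 1.25 and exact two-sided permutation p-values of 0.143 and 0.114. For Sox9, per 1000 CPM of the macrophage markers, control arteries 1 to 4 had 0.810, 1.35, 5.25 and 16.1, and the injured arteries had 10.03 to 15.89. The overlap of Sox9 was with control artery 4 alone, and without that artery the groups did not overlap and the difference was 2.72. For Matn3 it was 1.53 without control artery 4 and the groups still overlapped. These values without the artery carry no test. Relative to smooth muscle markers, the same 3 genes rose by 3.84 (Runx2), 5.20 (Sox9) and 4.52 (Matn3) in log2 ratio. The differences without control artery 4 were 3.85, 6.24 and 5.05. Each had an exact permutation p of 0.0286 with all arteries, but that outcome was fixed in advance. All 3 genes lay higher, and the summed smooth muscle level lower, in every injured artery than in any control. These ratios were chosen after the values were seen, and the part of macrophage or smooth muscle content in the results was not tested.

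**Figure D3:**
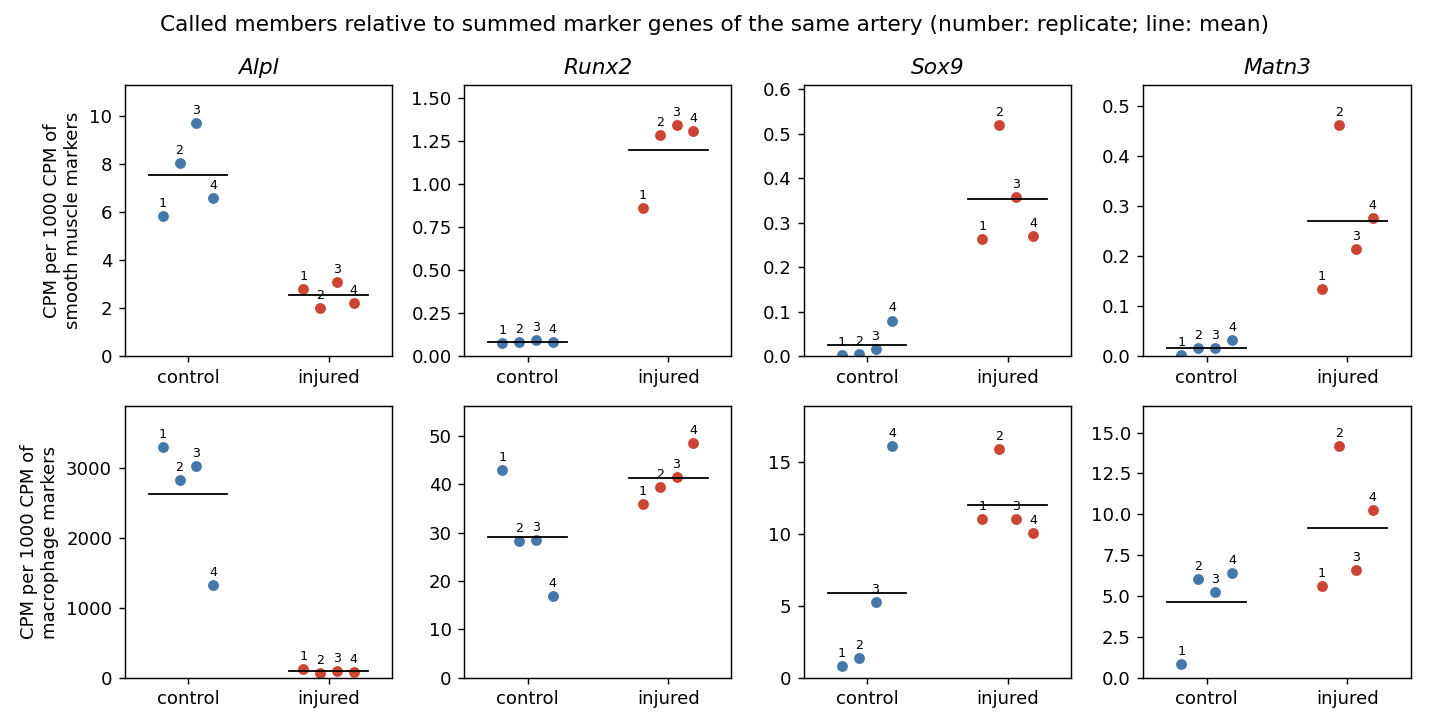
CPM of Alpl, Runx2, Sox9 and Matn3 per 1000 CPM of the summed smooth muscle markers (upper row) and macrophage markers (lower row) of the same artery, for control (blue) and injured (red) arteries with replicate numbers, and lines at the group means. Alpl lies lower after injury on both scales, while Runx2, Sox9 and Matn3 overlap between the groups relative to macrophage markers, Sox9 through control artery 4 alone. The separation of Alpl in the lower row, and of Runx2, Sox9 and Matn3 in the upper row, was fixed in advance. Gene and marker levels already did not overlap there and moved in opposite directions.

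Other markers that bear on cartilage and bone were also read. Of 6 markers that tracheal cartilage would bring, Matn1 had 0 counts in every artery, 1 was called lower (Col9a1), and the summed level was 5.75 to 8.13 CPM in the controls and 3.29 to 10.4 CPM after injury. Col2a1 and Col9a1 stand both in this list and in the cartilage list that follows. Of 6 osteoclast markers, 3 were called higher, with a summed level of 40.7 to 108 CPM in the controls and 178 to 328 CPM after injury, while Dcstamp was at 0 and Calcr had at most 2 counts. Ctsk, a protease that macrophages and fibroblasts also express, was the most abundant of these. Atp6v0d2, also called higher, had at most 1 count in any control and passed the filter on low counts through the injured arteries. Of 5 tendon markers, Tnmd had 0 counts throughout and 1 was called higher. Skeletal muscle markers, led by Acta1, summed to 83.7 to 252 CPM in the controls and 284 to 1012 CPM after injury, with 5 of 7 called higher. Of the endothelial markers 2 were called higher and 1 lower, of the fibroblast markers 1 and 2, of the thyroid and parathyroid markers 1 and 1, and of the Schwann cell, adipocyte, airway epithelium and sympathetic neuron markers 0 and 0 by edgeR. When control artery 4 was left out, Syt1 of the neuron list, Epcam of the airway list and Col2a1 of the tracheal list were called higher, and Cdh5 of the endothelial list was no longer called. Their part in the results was not tested.

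To place the members within the wider programme, 25 further cartilage genes, 25 further bone genes and 23 genes of mineral deposition and phosphate handling were listed. The lists were chosen with earlier results of these data known. Their counts and medians are therefore a description, and setting them beside all genes tests nothing. Cilp2, Col10a1 and Runx3 passed the filter on low counts through the injured arteries, so tallies of upregulated genes depend in part on it. Of the cartilage genes, 20 were tested, 7 were upregulated, 3 were downregulated and 10 were not called, with a median log2 fold change of 0.86. Over all genes tested, 8.31% were upregulated and 2.57% downregulated. Of the bone genes, 19 were tested, 2 were upregulated and 2 were downregulated, with a median of -0.17. Of the mineral genes, 17 were tested, 1 was upregulated and none was downregulated, with a median of -0.04. The median over all genes tested was -0.06. Without control artery 4, 10 cartilage genes were upregulated and 4 downregulated, 3 and 3 of the bone genes, and 1 and 1 of the mineral genes, in a fit that called 16.2% of all genes.

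**Figure D4:**
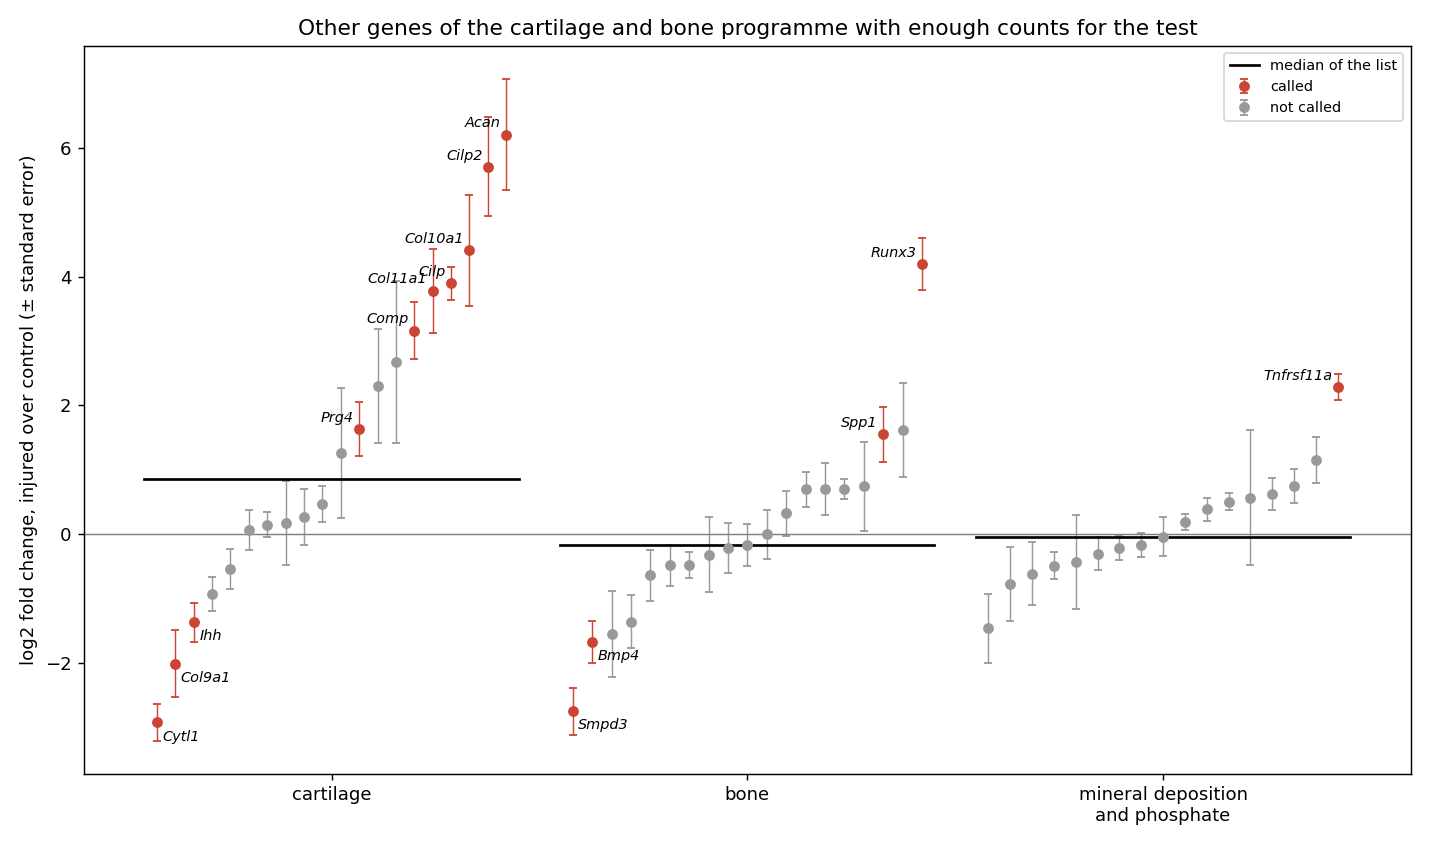
Log2 fold change of the injured over the control arteries (vertical axis, ± standard error from edgeR) of each tested gene of the cartilage, bone and mineral lists, ordered within a list, with called genes in red and named, other genes in grey and the median of each list as a bar. The cartilage list has a median of 0.86 and holds the gene with the largest change (Acan), and the medians of the bone and mineral lists are -0.17 and -0.04. The lists were chosen with earlier results of these data known.

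Among the upregulated cartilage genes, Acan, the large aggregating proteoglycan of cartilage, had 0.208 to 2.88 CPM in the controls and 31.7, 208, 72.8 and 154 CPM in injured arteries 1 to 4. Comp, a thrombospondin family protein that binds collagen, had 10.2 to 18.2 CPM in the controls and 48.9 to 176 CPM after injury. Injured artery 2 was the highest of the injured arteries for both, as it was for Sox9, Runx2, Sp7, Matn3, Chad and Ibsp among the members. Col10a1, the collagen of hypertrophic cartilage, had 0 to 0.486 CPM in the controls and 1.91 to 4.86 CPM after injury, which edgeR put at 4.41 on the log2 scale (standard error 0.86, adjusted p = 0.0111) and at 5.96 without control artery 4. Cilp2, Cilp and Col11a1 had log2 fold changes of 5.70, 3.90 and 3.78, and Col11a1 had 4.39 without control artery 4. Cilp2 had 1 to 6 counts in the controls and 72 to 371 in the injured arteries. Col10a1 had 0 to 7 counts in the controls and 32 to 67 in the injured arteries. Both passed the filter on low counts through the injured arteries, where they were higher. Col2a1, the main fibrillar collagen of cartilage and a direct target of SOX9, had 0.164 to 1.39 CPM in the controls and 1.26, 3.99, 0.674 and 6.95 CPM in injured arteries 1 to 4. It was not called with all arteries (adjusted p = 0.119 in edgeR's test) and was called without control artery 4 (log2 fold change 3.01, adjusted p = 0.0465). DESeq2 called Col2a1 with all arteries (log2 fold change 2.32, adjusted p = 0.0379).

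Sox5 and Sox6, whose products act together with SOX9, were not called with all arteries. Sox5 was at 7.06 ± 1.74 CPM (SD, n = 4) in the controls and 7.37 ± 2.43 CPM (SD, n = 4) after injury. Sox6 was at -0.92 on the log2 scale (standard error 0.27, adjusted p = 0.048 in edgeR's test), under the required fold change, and -1.14 without control artery 4, where it was called lower. The downregulated cartilage genes, named after their values were seen, were Cytl1, Col9a1 and Ihh, with log2 fold changes of -2.92, -2.01 and -1.37, and the remaining upregulated gene was Prg4 (1.63). Ihh is the hedgehog ligand of the growth plate.

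In the bone list, Spp1, osteopontin, which binds mineral and is also made by macrophages, had 439, 227, 251 and 169 CPM in control arteries 1 to 4 and 501, 1033, 425 and 1215 CPM in injured arteries 1 to 4. It was called at 1.55 on the log2 scale (standard error 0.43, adjusted p = 0.0415 in edgeR's test), although injured artery 3 lay below control artery 1. Runx3, a paralogue of Runx2 that is also used by lymphoid cells, was called higher, with 0.139 to 0.416 CPM in the controls and 3.85 to 6.82 CPM after injury. It had 2 to 6 counts in the controls and passed the filter on low counts through the injured arteries. Smpd3, a sphingomyelinase needed for mineralization of cartilage and bone, was called lower, with 281 to 384 CPM in the controls and 24.2 to 79.6 CPM after injury (log2 fold change -2.75, standard error 0.36, adjusted p = 0.00206 in edgeR's test). Bmp4, a bone morphogenetic protein, had a log2 fold change of -1.67 and was called lower. Bmp2 and Col1a1, the chain of the main collagen of bone, were not called, with log2 fold changes of -0.32 (standard error 0.58) and -0.22 (standard error 0.40).

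In the mineral list, the gene that was called was Tnfrsf11a, which encodes RANK, the receptor of the osteoclast differentiation factor. It had 1.66 to 2.57 CPM in the controls and 9.60 to 11.4 CPM after injury, while the gene of its ligand, Tnfsf11, had 0 counts in all 8 libraries. Tnfrsf11b, the decoy receptor osteoprotegerin, had 1166, 1337, 512 and 352 CPM in control arteries 1 to 4 and 501, 386, 159 and 174 CPM in injured arteries 1 to 4. It was not called with all arteries (log2 fold change -1.46, adjusted p = 0.105 in edgeR's test) and was called lower without control artery 4 (-1.73, adjusted p = 0.0278). With all arteries, DESeq2 also called it lower (-1.48, adjusted p = 0.0183). None of the listed genes on the pyrophosphate side of the alkaline phosphatase reaction was called lower. Ankh, which exports pyrophosphate and ATP, had 69.1 to 98.2 CPM in the controls and 104 to 113 CPM after injury, without overlap, but at 0.50 on the log2 scale (standard error 0.13, adjusted p = 0.0369 in edgeR's test) it was under the required fold change. Enpp1, which makes pyrophosphate from ATP, and Nt5e, which makes adenosine, had log2 fold changes of 0.62 (standard error 0.25) and 0.75 (standard error 0.26), and Slc20a1, a phosphate importer, had 0.38 (standard error 0.18). None of these 3 was called, and Abcc6 had too few counts. Ggcx and Vkorc1, the carboxylase and the reductase of the vitamin K cycle on which the Mgp and Bglap proteins depend, had log2 fold changes of -0.30 (standard error 0.25) and -0.49 (standard error 0.21) and were not called.

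The tested genes whose profile was most like each called member were found by the root mean square difference between log2 CPM profiles over the 8 arteries, each centred on its own mean. For Runx2 they were Myo1f, Ckap2 and Esm1, with differences of 0.18, 0.21 and 0.22. For Sox9 they were LOC691141, Itga4 and Mefv, with 0.32, 0.35 and 0.37, and for Matn3 they were Dsn1, Siglec8 and Sla, with 0.22, 0.34 and 0.35. For Alpl they were Col19a1, Sult1d1 and Sh3bgr, with 0.29, 0.32 and 0.35. Among the members themselves, Sox9 and Matn3 were the closest pair of called genes at 0.78, Runx2 lay at 0.86 from Matn3 and at 1.21 from Sox9, and Alpl was nearest to Sp7 at 1.24. The profiles include the difference between the groups, so genes with a similar change after injury lie close. These distances do not show whether genes vary together among the arteries of a group.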

How the data were processed

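The authors deposited raw counts of reads per gene for 4 injured and 4 control carotid arteries, without normalization. The submitters' processing notes name HISAT2 2.0.4, and the counting tool, genome build and strand setting are not given in the sources used here. Each count column was assigned to an artery by its label. The study used DESeq at a fold change above 2 and an FDR under 0.05.

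The tests were run in R 4.3.3 with edgeR 4.0.16, whose filterByExpr function retained 14359 of 37209 genes, and TMM scaling and the quasi-likelihood test followed, with group as the single term and p-values adjusted over all genes tested. Standard errors came from the F statistic. CPM values used TMM factors, and permutation tests used log2 CPM with a prior count of 2. The code was tested on simulated data. Replicates of a group differed by more than sampling noise in a chi-square test of their counts. Other settings tried were DESeq2 1.42.0, the scalings RLE, upper quartile and library totals only, omission of the filter, a minimum of 10 counts in every sample, a block for the replicate number, omission of single arteries, calls by FDR alone, a prior count of 0.5 and a test against a 2-fold change. Ratios to summed smooth muscle or macrophage markers were added after the data were seen.

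The members and the lists of cartilage, bone, mineral and marker genes were chosen with earlier results of these data known. All listed cartilage, bone and mineral genes matched, 2 of them by a synonym in the GRCr8 annotation. Named from each list were called genes, up to the 6 with the largest change, and a fixed set of genes (Acan, Col2a1, Sox5, Sox6, Comp, Spp1, Col1a1, Bmp2, Enpp1, Ankh, Abcc6, Nt5e, Tnfrsf11b, Ggcx, Vkorc1 and Slc20a1). Depth limits precision, and the floor was set at 3 counts of the library total.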

Additional observations from a re-analysis of the deposited data

Results flagged for a closer look

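In 68 groups of 4 arteries, formed by the members and the named list genes in each condition, 10 had an artery whose gap to its nearest neighbour was, relative to the range of the group, above the 95% limit of Dixon's test. For normally distributed values about 1 group in 20, or 3.4, would be expected. The CPM of genes with few counts need not be so distributed, so setting 10 against 3.4 is not a test. In 4 of the 10 it was control artery 4. That ratio came to 0.832 for Sox6 (11.3 CPM against 23.3 in the nearest control), 0.834 for Col1a1 (8466 against 23918 CPM), 0.92 for Ankh (98.2 against 71.5 CPM) and 0.89 for Abcc6 (2.43 against 0.328 CPM).

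Injured artery 2 was that artery for Col11a1, with 302 CPM against 106 CPM in the nearest injured artery and a ratio of 0.836. It also was for Chad, with 1.74 against 0.491 CPM and a ratio of 0.945, for Sp7, with 0.943 against 0.409 CPM and a ratio of 0.8291, and for Msx2, with 0 against 0.239 CPM and a ratio of 0.852. The ratio was 0.86 for Bglap in injured artery 4 and 0.948 for Chad in control artery 3. In the groups named, the values of Msx2 and Bglap rest on at most 5 counts and those of Chad on at most 24.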

How the results depend on the processing

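The counts of alternatives for single members leave out calls by FDR alone and the test against a 2-fold change. In these counts, Runx2 and Alpl were called in all 15 alternatives and Matn3 in all 14 of them that could test it. Their log2 fold changes ran from 2.16 to 2.59, from -3.29 to -2.83 and from 2.43 to 3.10, in that order. Sox9 was called in 8 of 14, with 2.68 to 3.98. Ibsp ranged from -0.51 (without injured artery 2) to 0.58 with 1 artery left out and was -0.018 with the replicate block. Sp7, Ibsp and Mgp were called in none of theirs. Library totals only moved the median log2 fold change of all genes by 0.175, and the exact permutation p of Mgp was then 0.0286. With at least 10 counts in every sample, 1007 genes, 1 higher member and 6 cartilage genes were called. Against a fold change of 2 there were 661 genes, 1 higher member instead of 3, and 2 bone genes. In that test, only 1 of Runx2, Sox9 and Matn3 kept its call. With the FDR alone there were 2468 genes and 2 mineral genes. DESeq2 called 2 lower members, the second being Msx2, and 3 mineral genes, and library totals only gave 2 mineral genes. With 1 artery left out, the counts ranged from 1142 to 2398 genes, from 2 to 3 higher and from 1 to 2 lower members, and from 1 to 2 mineral genes. The higher count of lower members and 2398 genes came without control artery 4, and 2 mineral genes came without control artery 1 or 4. The cause was not tested.

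With the replicate block, 2 mineral genes were called, the second being Tnfrsf11b (adjusted p = 0.0191 in edgeR's test), and Sox9, at 3.38 on the log2 scale, was not called (adjusted p = 0.0725 in edgeR's test). Between arteries of 1 number, the deviations from the group mean correlated at 0.301, 0.45, -0.52 and -0.416, and 3 of the 8 arteries correlated best with their own number, so whether a number marks 1 rat was not established. Counts of at most 5 for Bglap limit what can be said of it.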

Other observations

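Fgf23, the phosphate-regulating hormone of bone cells, stood out after its values were seen. It had 0 counts in every control artery and 6, 15, 16 and 28 counts in injured arteries 1 to 4. With a floor of 3 counts in each control library it was at least 5.98-fold higher after injury. With all 8 arteries it did not pass the filter on low counts. Without that filter edgeR called it (adjusted p = 0.0189), as did DESeq2 (adjusted p = 3.5e-05), and with the filter edgeR called it without control artery 4 (adjusted p = 0.0132). Dmp1, a phosphoprotein of osteocytes, had group means of 232 ± 108 and 90.4 ± 39.3 CPM in control and injured arteries (SD, n = 4 each). With all 8 arteries edgeR did not call it, at -1.36 on the log2 scale (adjusted p = 0.0602), while DESeq2 called it lower (-1.37, adjusted p = 0.00587). Without control artery 4 edgeR called it lower too, at -1.59 (adjusted p = 0.0114).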
